A study of Mus musculus with 4 samples.

Results

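Added loss of Mel18 in colonic epithelium that already lacked Bmi1 was read as 1 difference, the array labelled with loss of both genes minus the array labelled with loss of Bmi1 alone. These are 2 of the 4 arrays of the study, and the difference was taken for every probe set with exactly 1 gene symbol, 34945 of the 45037 probe sets measured, which represent 18193 genes. The first array carries the genotype Bmi1ΔIEC Mel18ΔIEC (DKO in the labels) and the second the genotype Bmi1ΔIEC. The other 2 arrays, Mel18ΔIEC and wild type, place these values and give the Mel18 label without the Bmi1 label. ΔIEC is taken here as loss in intestinal epithelial cells, and the Cre driver and the deleted exons are not given in the sources used here. All 4 groups were sex-matched C57BL/6 mice of 6 to 8 weeks that received azoxymethane, a carcinogen, at 10 mg/kg and then, 5 days later, 3.5% dextran sulfate sodium, which injures the colonic lining, for 5 days. Wild-type mice had the same treatment, so no array shows an untreated colon. Cells shaken from the opened colon with EDTA on day 12 gave the 200 ng of total RNA hybridised per array, and the number of mice behind an array is not stated.

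Bmi1 and Mel18 (gene symbol Pcgf2) are related RING finger proteins, and a Polycomb repressive complex 1 holds either of them beside the ubiquitin ligase Ring1 or Rnf2. The complex marks histone H2A and compacts chromatin, and it is known for keeping Hox genes, other developmental regulators and the Ink4a/Arf locus (Cdkn2a) silent. In the intestine, Bmi1 is also known as a marker of cells in the crypt that can renew the epithelium.

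The targeted genes do not check the labels. Both Bmi1 probe sets were bright on the array labelled double knockout, at 432 and 399 intensity units, and on the Bmi1-labelled array, at 334 and 339. They were dimmer with the Mel18 label, at 160 and 135, and in wild type, at 116 and 88.4, which goes against a lower Bmi1 transcript on the arrays labelled with its loss. The brighter Pcgf2 probe set read 32.0 (double knockout), 33.4 (Bmi1), 39.8 (Mel18) and 30.2 units (wild type), all close to the floor defined below. Where the probes lie relative to the deleted exons is not given, and arrays are therefore called by their labels: DKO-labelled, Bmi1-labelled, Mel18-labelled and wild type. Xist, the RNA that silences an X chromosome, stood at 611 units on the DKO-labelled array, against 45.5 on the Bmi1-labelled, 54.2 on the Mel18-labelled and 122 on the wild-type array. The Y-linked Eif2s3y read 229 on the DKO-labelled and 282 on the Bmi1-labelled array. The sexes behind an array are not given, and the part of sex in any difference below was not tested. The epithelial label held on both arrays: the adhesion protein Epcam read 10481 on the DKO-labelled and 10012.5 on the Bmi1-labelled array, and the keratin Krt8 read 18890.4 on the DKO-labelled and 17489.6 on the Bmi1-labelled array.

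A gene counts as higher or lower here when it differed at least 2-fold and the higher of the 2 values reached the floor, which is the median of all probe-set values, 33.4 units. Differences are log2 of the DKO-labelled value over the Bmi1-labelled value. With 1 array a genotype there is no replicate check, so no difference has an error or a p-value, and a size rule stands in for a test. The rule gave 515 higher and 953 lower genes on the DKO-labelled array, together 12.3% of 11966 genes tested (4.3% higher and 7.96% lower). Counts of list members below are to be read beside these shares. The higher share of these calls was 35.1% as deposited, 27.4% with each array centred on its median, and 61.4% with each array set to the median of its genes that reached the floor, so the balance of directions has no fixed sign. The median tested gene differed by -0.14 as deposited and by -0.23 and 0.11 under those centrings. The middle of the distribution was narrow beside the calls, with percentile 25 at -0.51 and percentile 75 at 0.22. Of the higher genes 125 differed at least 4-fold and 36 at least 8-fold, and of the lower genes 102 and 22 did. The rule has a soft edge: the ion channel Trpa1 lay just inside it at 41.2 (DKO-labelled) against 20.5 (Bmi1-labelled) and Rnf24 just outside at 99.0 (DKO-labelled) against 49.5 (Bmi1-labelled), while Rprm lay just inside on the lower side at 64.5 (DKO-labelled) against 129 (Bmi1-labelled) and Foxn3 just outside at 158 (DKO-labelled) against 316 (Bmi1-labelled).

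These were the 2 arrays that lay farthest apart, with a Spearman correlation of 0.969 across probe sets. The arrays labelled with loss of 1 gene lay closest to each other, at 0.990 with 164 genes past the rule, and the DKO-labelled and wild-type arrays followed at 0.984 with 512 genes past it. The DKO-labelled array was nearer to the Mel18-labelled than to the Bmi1-labelled array, with 456 genes higher and 538 lower. Every value below therefore sits between an array that lay near wild type and an array that lay near the Mel18-labelled one.

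**Figure D1:**
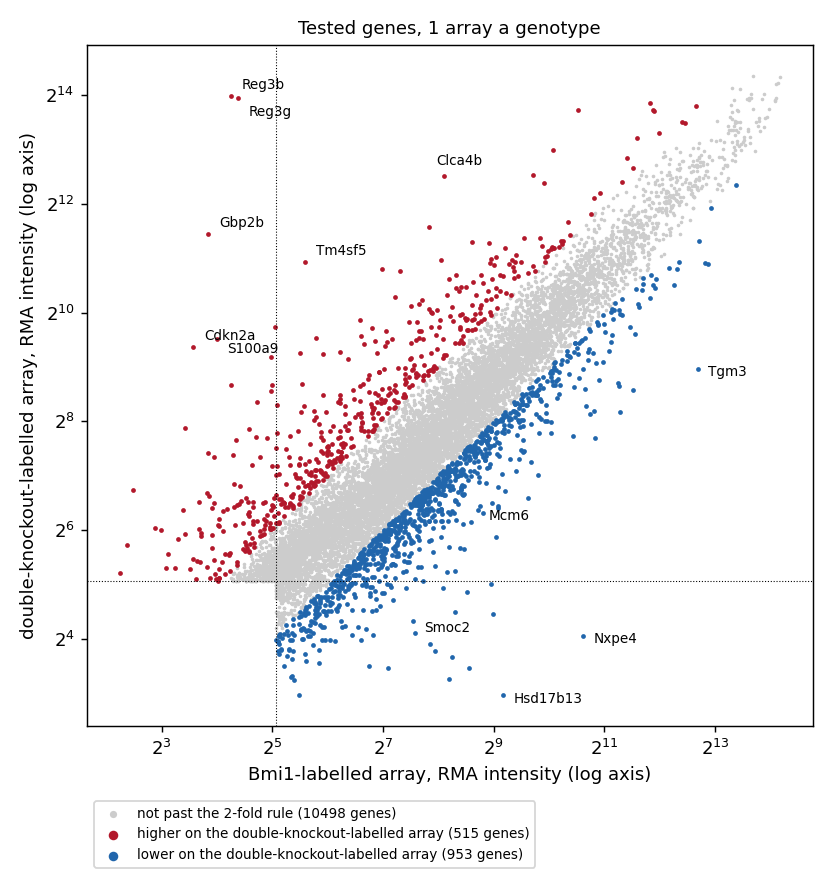
Intensity of each of the 11966 tested genes on the DKO-labelled array (vertical log axis) against the Bmi1-labelled array (horizontal log axis), in RMA intensity units, 1 point a gene and 1 array a genotype. Red points are the 515 genes higher and blue points the 953 genes lower by the 2-fold rule, grey points the rest, and dotted lines mark the floor of 33.4 units; Reg3b and Reg3g stand far above the diagonal and Nxpe4 and Hsd17b13 far below it.

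Among the genes that Polycomb complexes are known to silence, the Ink4a/Arf transcript was high on the DKO-labelled array alone. Cdkn2a, the gene of the p16 inhibitor and of Arf, read 662 units on the DKO-labelled array, against 11.9 on the Bmi1-labelled, 11.7 on the Mel18-labelled and 10.6 on the wild-type array. Its difference was 5.80, and since the Bmi1-labelled value lies under the floor, the fold is better given as at least 19.8-fold over the floor. The neighbouring inhibitor Cdkn2b read 817 on the DKO-labelled and 491 on the Bmi1-labelled array, a difference of 0.73 that did not pass the rule. Of the 7 CDK inhibitor genes tested, Cdkn2a was the 1 higher and 2 were lower, Cdkn1b (p27) at 368 (DKO-labelled) against 809 (Bmi1-labelled) and Cdkn1c (p57) at 47.7 (DKO-labelled) against 97.1 (Bmi1-labelled). Among 16 tested genes of the p53 pathway 2 were higher and none lower: Phlda3, an inhibitor of Akt signalling, at 185 (DKO-labelled) against 64.5 (Bmi1-labelled), and Pmaip1, the death-promoting protein Noxa, at 915 (DKO-labelled) against 435 (Bmi1-labelled). The p53 antagonist and target Mdm2 read 262 on each of the 2 arrays.

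Developmental regulators outside the Hox clusters included 5 higher genes. Of 67 listed, 62 were measured, 35 lay under the floor on all arrays and 24 were tested, with 5 higher, 1 lower and a median of 0.30. That median turned to -0.25 with the floor at percentile 75, so it has no fixed direction. Irx2, an Iroquois homeobox factor, read 103 on the DKO-labelled array, 14.2 on the Bmi1-labelled, 15.2 on the Mel18-labelled and 13.9 on the wild-type array. Tfap2a, a factor of surface ectoderm and neural crest, read 90.8 on the DKO-labelled and 15.4 on the Bmi1-labelled array, and Pax3, a factor of muscle and neural crest, 81.5 (DKO-labelled) and 17.2 (Bmi1-labelled). Gata4 and Pdx1, factors of the proximal gut, read 85.6 and 208 on the DKO-labelled and 19.9 and 58.8 on the Bmi1-labelled array. For all 5 the DKO-labelled array was the highest of the 4, and the Bmi1-labelled value of 4 of them lay under the floor. Foxa2, a gut endoderm factor, was the lower member, at 272 on the DKO-labelled and 900 on the Bmi1-labelled array.

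Hox genes showed another pattern. Of 39 listed, 15 lay under the floor on all arrays, and of the 18 tested none was higher and 3 were lower, with a median of -0.39. Hoxd10 read 39.9 on the DKO-labelled array, against 197 on the Bmi1-labelled, 200 on the Mel18-labelled and 125 on the wild-type array, the lowest of 4 values by a wide margin. Hoxd11 read 22.2 on the DKO-labelled and 50.4 on the Bmi1-labelled array. Hoxa10 read 88.8 on the DKO-labelled and 195 on the Bmi1-labelled array by its brighter probe set, and 44.7 and 32.0 on these arrays by another, which runs the other way. The Hox median was 0.0088 with each array set to the median of its genes that reached the floor and 0.085 without a floor, so the list as a whole has no fixed direction.

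Most genes of the complexes themselves did not pass the rule. Of 22 tested PRC1 genes 3 were lower and none higher, with a median of -0.38. Over all tested genes 7.96% were lower, with a median of -0.14. The CpG island reader Kdm2b was lower at 166 on the DKO-labelled and 467.5 on the Bmi1-labelled array. So were the variant complex subunit Auts2 at 86.6 (DKO-labelled) and 201 (Bmi1-labelled), and Pcgf1 at 32.2 (DKO-labelled) and 69.4 (Bmi1-labelled). The ligase Rnf2 read 175 on the DKO-labelled and 299 on the Bmi1-labelled array, the Cbx reader Cbx7 83.7 (DKO-labelled) and 146 (Bmi1-labelled), and Ring1 108 (DKO-labelled) and 141 (Bmi1-labelled), none past the rule. None of 11 tested PRC2 genes passed it, and the methyltransferase Ezh2 was farthest at 161 (DKO-labelled) against 307 (Bmi1-labelled).

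DNA replication was the list with the most lower members. Of 37 tested members 18 were lower and 1 was higher, with a median of -0.995, against 7.96% lower and a median of -0.14 over all tested genes. Mcm6, a subunit of the replicative helicase, read 83.1 units on the DKO-labelled array, against 422 on the Bmi1-labelled, 279 on the Mel18-labelled and 403 on the wild-type array, a difference of -2.34. A further Mcm6 probe set read 22.8 on the DKO-labelled and 237 on the Bmi1-labelled array. Pola1, the catalytic subunit of the polymerase that primes synthesis, read 33.3 on the DKO-labelled array, 122 on the Bmi1-labelled, 75.9 on the Mel18-labelled and 97.3 on the wild-type array. In both genes the DKO-labelled array was the lowest of the 4 and the Mel18-labelled array lay between it and the Bmi1-labelled one. The helicase subunits Mcm5, Mcm3, Mcm2, Mcm7 and Mcm4 differed by -1.75, -1.34, -1.39, -1.31 and -1.06, the clamp loader subunit Rfc4 by -1.82 and the dUTPase Dut by -1.78. Uhrf1, which directs DNA methylation to new strands, differed by -1.66 and the primase subunit Prim1 by -1.64. The sliding clamp Pcna, at 1185 (DKO-labelled) against 2074 (Bmi1-labelled), and the ribonucleotide reductase subunit Rrm2, at 89.1 (DKO-labelled) against 175 (Bmi1-labelled), fell short of the rule. E2f2, an activator of these genes, was the higher member at 227 on the DKO-labelled and 65.7 on the Bmi1-labelled array, whereas E2f1 read 41.3 and 45.5 there.

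Promoters of 4 of the lower replication genes are shown because replication genes are a textbook target of E2F factors, and each of these holds a match to an E2F motif. The windows are from RefSeq (GRCm38.p6), 5′ to 3′ on the strand of the gene, with motif matches in capitals. Mcm6, chr1:128359726-128359815 on the minus strand, from 110 to 21 bases before the annotated start, holds 2 matches. Pola1, chrX:93632266-93632345 on the minus strand, Mcm5, chr8:75109308-75109387 on the plus strand, and Mcm7, chr5:138172021-138172100 on the minus strand, each hold 1.
Mcm6: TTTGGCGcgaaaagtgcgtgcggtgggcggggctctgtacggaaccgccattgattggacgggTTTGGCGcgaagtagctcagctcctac
Pola1: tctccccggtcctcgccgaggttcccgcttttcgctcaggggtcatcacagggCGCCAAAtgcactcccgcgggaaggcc
Mcm5: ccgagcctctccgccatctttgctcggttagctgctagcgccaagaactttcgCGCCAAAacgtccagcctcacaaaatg
Mcm7: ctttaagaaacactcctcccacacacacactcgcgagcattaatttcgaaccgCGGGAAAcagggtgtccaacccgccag
The letters searched were TTTGGCG and TTTCCCG on either strand, which do not overlap each other, from 250 bases before to 50 bases after the start. A match stood in 17 of the 35 replication genes with a promoter in the table (48.6%), and in 6 of the 15 lower ones (40.0%). Over all genes it stood in 87 of 784 lower genes (11.1%), in 14 of 386 higher genes (3.63%) and in 886 of 9649 tested genes (9.18%), beside 5.55% of all 27025 promoters in the table. The share among lower genes was thus close to that among tested genes, and a match is a run of letters, not a shown binding site.

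Of 33 tested members of the mitosis list 11 were lower and none higher, with a median of -0.82. The kinase Aurkb read 16.6 on the DKO-labelled and 50.3 on the Bmi1-labelled array, the spindle protein Nusap1 60.9 (DKO-labelled) and 174 (Bmi1-labelled), and the motor Kif11 32.5 (DKO-labelled) and 90.5 (Bmi1-labelled). Top2a, which untangles chromosomes, read 83.1 on the DKO-labelled and 219 on the Bmi1-labelled array by its brighter probe set, and 56.4 and 51.7 on these arrays by another. Mki67, the Ki-67 proliferation antigen, read 225 on the DKO-labelled, 464 on the Bmi1-labelled, 473.5 on the Mel18-labelled and 612 on the wild-type array.

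Of 21 tested crypt stem cell genes and Wnt targets 9 were lower and 1 higher, with a median of -0.71, or -0.43 without a floor. Smoc2, a secreted matrix protein of crypt base stem cells, read 20.2 on the DKO-labelled array, 188 on the Bmi1-labelled, 94.9 on the Mel18-labelled and 42.0 on the wild-type array. Lgr5, the R-spondin receptor that marks those cells, read 18.8 on the DKO-labelled, 93.6 on the Bmi1-labelled, 35.1 on the Mel18-labelled and 21.7 on the wild-type array. In both genes the Bmi1-labelled array was the highest, and the DKO-labelled value lay under the floor, as did the wild-type value of Lgr5. Ascl2, the stem cell transcription factor, differed by -2.18, and the Wnt feedback genes Axin2 and Znrf3 by -1.86 and -1.27. Cdca7 differed by -2.72, the ErbB inhibitor Lrig1 by -1.86, Hopx by -1.42 and Myc by -1.23. Prom1 (CD133) was the higher member, at 5341 on the DKO-labelled, 964 on the Bmi1-labelled, 2287 on the Mel18-labelled and 2118 on the wild-type array. Of 15 tested Notch and secretory fate genes only Notch1 passed the rule, at 107 (DKO-labelled) against 295 (Bmi1-labelled) by its brighter probe set. By another Notch1 probe set the values were 79.1 (DKO-labelled) and 103 (Bmi1-labelled), short of the rule. The secretory factor Atoh1 read 585 (DKO-labelled) against 871 (Bmi1-labelled).

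**Figure D2:**
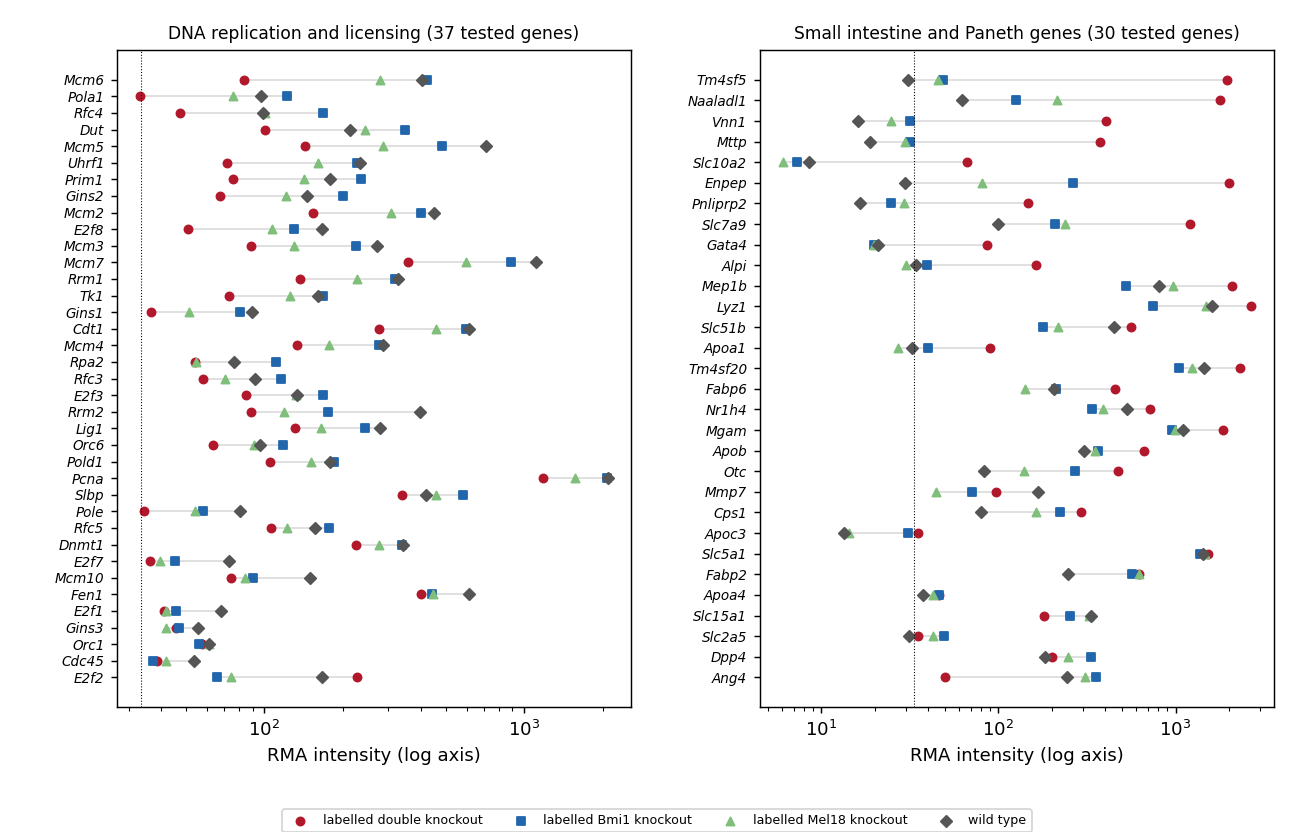
RMA intensity (horizontal log axis) of every tested member of the replication list (37 genes, left) and of the small intestine and Paneth list (30 genes, right), 1 row a gene, with 1 symbol for each of the 4 arrays and a dotted line at the floor of 33.4 units. On the left the DKO-labelled array is at the low end for most genes, with E2f2 as the exception at 227 units; on the right it is at the high end, with Ang4 at 50.1 units as the clearest exception.

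The cells came from colon, where many genes of the small intestine are normally low. Of 30 tested members of the small intestine and Paneth list 17 were higher and 1 was lower, with a median of 1.13, or 0.84 without a floor. A further 10 listed genes lay under the floor on all arrays, among them Fabp1 and Lct. Tm4sf5, a tetraspanin-like membrane protein, read 1948 on the DKO-labelled array, against 48.5 on the Bmi1-labelled, 45.7 on the Mel18-labelled and 30.7 on the wild-type array. Mttp, which loads lipid onto apolipoprotein B, read 376 on the DKO-labelled, 31.6 on the Bmi1-labelled, 29.5 on the Mel18-labelled and 18.7 on the wild-type array. Slc10a2, the bile acid transporter of the ileum, read 66.0 on the DKO-labelled array and between 6.09 and 8.47 on the other 3. These genes were high on the DKO-labelled array alone. The peptidase Naaladl1 differed by 3.81, the pantetheinase Vnn1 by 3.68, the aminopeptidase Enpep by 2.92, the cystine transporter subunit Slc7a9 by 2.53 and intestinal alkaline phosphatase (Alpi) by 2.05. Enpep was graded, at 1995 on the DKO-labelled, 264 on the Bmi1-labelled, 81.2 on the Mel18-labelled and 29.9 on the wild-type array. The bile acid binding protein Fabp6 and the bile acid receptor Nr1h4 differed by 1.12 and 1.08. Lyz1, the Paneth cell lysozyme, read 2655 on the DKO-labelled and 747 on the Bmi1-labelled array. Ang4, a secreted ribonuclease of Paneth and goblet cells, was the lower member at 50.1 (DKO-labelled) against 354 (Bmi1-labelled). Several absorptive genes of the list did not pass the rule, such as the sodium-glucose transporter Slc5a1 at 1528 (DKO-labelled) against 1370 (Bmi1-labelled) and the fatty acid binding protein Fabp2 at 621 (DKO-labelled) against 569 (Bmi1-labelled). Others leaned lower without passing it, such as the peptidase Dpp4 at 200 (DKO-labelled) against 334 (Bmi1-labelled) and the peptide transporter Slc15a1 at 181 (DKO-labelled) against 253 (Bmi1-labelled).

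Colonocyte genes were split between the directions. Of 33 tested 6 were higher and 9 lower, with a median of 0.16. The lower ones held solute and water carriers: the butyrate transporter Slc5a8 read 287 on the DKO-labelled, 2498 on the Bmi1-labelled, 2458 on the Mel18-labelled and 1282 on the wild-type array. The water channel Aqp8 differed by -1.77, the sulfate transporter Slc26a2 by -1.43, the proton pump Atp12a by -1.37, the lactate and butyrate carrier Slc16a1 by -1.31, the chloride channel Cftr by -1.04 and carbonic anhydrase Car2 by -1.03. Tgm3, a transglutaminase, read 498 on the DKO-labelled array and between 3174 and 6581 on the other 3, the lowest by a clear gap. The higher ones held carbonic anhydrase Car1 at 2.03, the sodium-proton exchanger Slc9a3 at 2.07, the peptide hormone Guca2a at 1.84, the differentiation keratin Krt20 at 1.42 and Emp1 at 2.43. Car1 read 14807 on the DKO-labelled and 3622 on the Bmi1-labelled array. Of 20 tested general epithelial genes 2 were higher, the tight junction protein Cldn4 at 732 (DKO-labelled) against 143 (Bmi1-labelled) and Krt20.

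Of 24 tested goblet cell genes 6 were higher and 2 lower, with a median of 0.33. The mucin Muc2 read 14180 on the DKO-labelled array, 6488 on the Bmi1-labelled, 11277 on the Mel18-labelled and 11595 on the wild-type array. The mucus protein Fcgbp read 13349 on the DKO-labelled, 3813 on the Bmi1-labelled, 8439 on the Mel18-labelled and 8564 on the wild-type array. In both genes the Bmi1-labelled array stood lowest and alone. Retnlb, a goblet cell product induced by microbes, read 716 on the DKO-labelled and 116 on the Bmi1-labelled array, and 2665 in wild type. The protease Capn9, the fucosyltransferase Fut2 and the secreted protein Clca1 differed by 1.99, 1.42 and 1.32. Ang4 and the ion channel Best2, at -1.68, were the lower members, while the trefoil factor Tff3, at 0.83, did not pass the rule.

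Of 15 tested enteroendocrine genes 4 were higher and 1 lower, with a median of 0.28, or 0.99 with the floor at percentile 75. Tac1, the substance P precursor of neurons and enterochromaffin cells, read 3064 on the DKO-labelled array, 227 on the Bmi1-labelled, 671 on the Mel18-labelled and 1298 on the wild-type array. Cholecystokinin (Cck), a hormone of the upper small intestine, read 68.2 on the DKO-labelled array and between 13.1 and 16.3 on the other 3. The granule protein Chgb differed by 1.72 and somatostatin (Sst) by 1.58, whereas Insl5, a hormone of colonic endocrine cells, differed by -1.10. Peptide YY (Pyy), at 2228 (DKO-labelled) against 2045 (Bmi1-labelled), did not pass the rule. Tuft cell genes had 1 of 8 higher, the lipoxygenase activator Alox5ap, and 1 lower, Rgs13.

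Xenobiotic and steroid metabolism was the list with the most lower genes after DNA replication. Of 39 tested 16 were lower and 3 higher, with a median of -0.78, or -0.35 without a floor. Set against wild type, the median of these members was 0.34 on the DKO-labelled and 0.84 on the Bmi1-labelled array. The median member thus lay above wild type on both arrays, and farther above it on the Bmi1-labelled one. Hsd17b13, a lipid droplet dehydrogenase, read 7.81 on the DKO-labelled array, 573 on the Bmi1-labelled, 11.0 on the Mel18-labelled and 7.86 on the wild-type array, so the Bmi1-labelled array alone was high. A second Hsd17b13 probe set lay under the floor at 13.8 on the DKO-labelled and 17.2 on the Bmi1-labelled array and did not show the difference. The carboxylesterase Ces1d read 22.5 on the DKO-labelled, 315 on the Bmi1-labelled, 102 on the Mel18-labelled and 74.5 on the wild-type array. The glutathione transferases Gsta3 and Gstm1 differed by -3.16 and -2.94 and the cytochrome Cyp2c68 by -3.15. Cyp11a1, which starts steroid synthesis, read 15.7 on the DKO-labelled and 96.7 on the Bmi1-labelled array. Cyp2c65, at 360 (DKO-labelled) against 60.1 (Bmi1-labelled), Cyp4f14, at 382 (DKO-labelled) against 146 (Bmi1-labelled), and the efflux pump Abcg2, at 944 (DKO-labelled) against 368 (Bmi1-labelled), were the higher members. Of 23 tested fatty acid oxidation genes 3 were lower and 1 higher: the gluconeogenic enzyme Pck1 at 153 on the DKO-labelled and 821 on the Bmi1-labelled array, the acyl-CoA synthetase Slc27a2 at -2.19, the thioesterase Acot1 at -1.38, and the kinase Pdk4 at 1.32. The rate-limiting carnitine transferase Cpt1a read 1934 (DKO-labelled) against 1889 (Bmi1-labelled). Of 24 tested genes of cholesterol and fatty acid synthesis 2 were lower, the desaturase Scd2 at -1.35 and the citrate lyase Acly at -1.15. The median of the synthesis list was -0.02, and that of the oxidation list -0.21. Over all tested genes 7.96% were lower and 4.3% higher, so the count of lower synthesis genes is close to the background share.

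Secreted defence proteins held the largest differences among the named genes. Reg3b, a lectin that binds bacteria at the epithelial surface, read 16063 units on the DKO-labelled array, against 19.1 on the Bmi1-labelled, 18.6 on the Mel18-labelled and 731 on the wild-type array. A further Reg3b probe set read 10572 on the DKO-labelled, 18.5 on the Bmi1-labelled, 15.3 on the Mel18-labelled and 999 on the wild-type array. Its relative Reg3g read 15800.4 on the DKO-labelled, 20.8 on the Bmi1-labelled, 28.8 on the Mel18-labelled and 523 on the wild-type array. Both transcripts were thus highest on the DKO-labelled array, above wild type, and under the floor on the other 2 arrays, and the DKO-labelled values stood at least 482-fold and 474-fold over the floor. Over the list of Reg lectins and antimicrobials 7 of 22 tested were higher and 4 lower, with a median of 0.62 and a mean of 1.11. The peroxidase Lpo read 603 on the DKO-labelled and 60.4 on the Bmi1-labelled array, the protease inhibitor Slpi 13526.6 (DKO-labelled) and 1473 (Bmi1-labelled), and lactoferrin (Ltf) 289 (DKO-labelled) and 62.4 (Bmi1-labelled). The lower members were the beta-defensin Defb45 at 29.2 (DKO-labelled) against 366 (Bmi1-labelled), Ang4, the phospholipase Pla2g2a at 35.4 (DKO-labelled) against 114 (Bmi1-labelled), and Wfdc2 at 2549 (DKO-labelled) against 6701 (Bmi1-labelled).

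**Figure D3:**
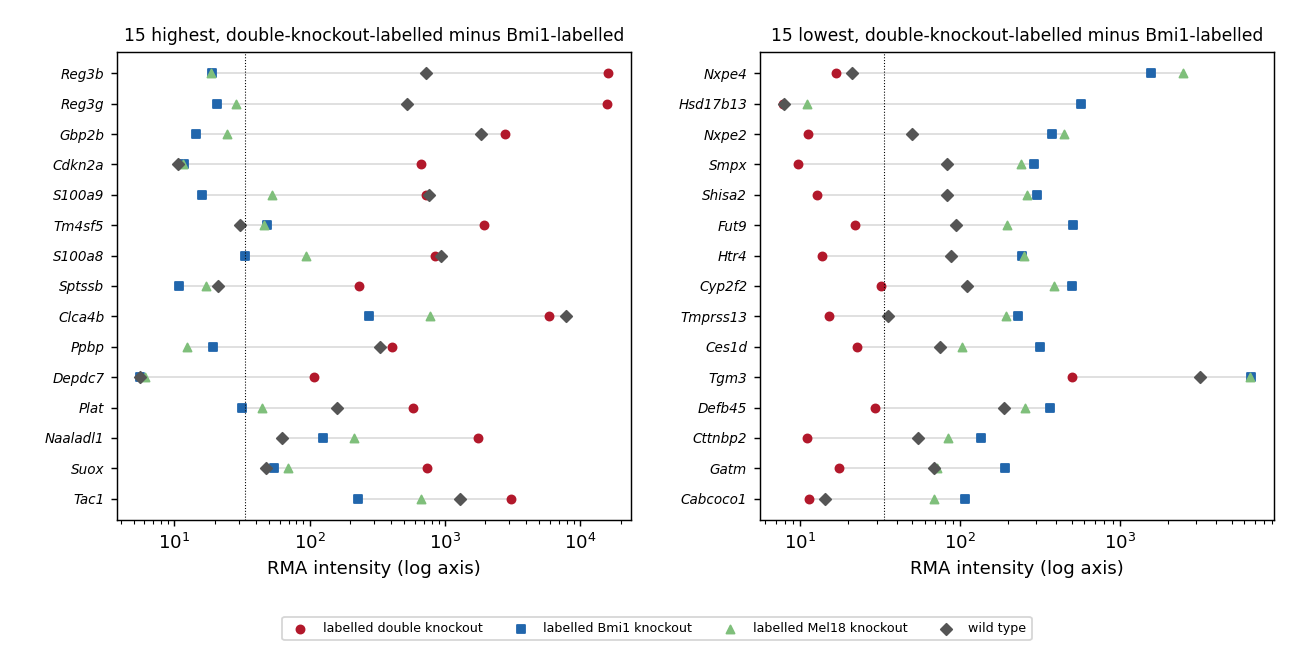
RMA intensity (horizontal log axis) on each of the 4 arrays for the 15 highest (left) and 15 lowest (right) named genes of the DKO-labelled minus Bmi1-labelled difference, with a dotted line at the floor of 33.4 units. Cdkn2a, Tm4sf5, Depdc7 and Suox are high on the DKO-labelled array alone, Gbp2b, S100a8, S100a9, Ppbp and Clca4b read close to wild type there, and Hsd17b13 is high on the Bmi1-labelled array alone at 573 units.

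Of 31 tested cytokine and chemokine genes, the mediators of inflammation, 9 were higher and 1 lower, with a median of 0.46, which was 0.74 with each array set to the median of its genes that reached the floor. Il1b, the inflammasome cytokine, read 928 on the DKO-labelled array, against 96.2 on the Bmi1-labelled, 129 on the Mel18-labelled and 1161 on the wild-type array. The neutrophil-attracting chemokines Ppbp, Cxcl5 and Cxcl2 differed by 4.40, 3.32 and 3.15 and the inducible prostaglandin synthase Ptgs2 by 2.50. The alarmin Il33 read 182 on the DKO-labelled array and between 27.5 and 36.9 on the other 3. Il1b, Cxcl5, Cxcl2 and Ptgs2 read under their wild-type values on the DKO-labelled array, and lower still on the Mel18-labelled and Bmi1-labelled arrays. The T cell chemokine Cxcl9 was the lower member, at 93.9 (DKO-labelled) against 244 (Bmi1-labelled).

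Beside these stand the markers of white blood cells, which the preparation could hold because no sorting step is described. Of 14 tested neutrophil genes 10 were higher and 1 lower, with a median of 1.79. That median was 3.45 with the floor at percentile 75, 1.46 without a floor and 1.24 with 16 added to each intensity. The summed intensity of the neutrophil genes was 2938 on the DKO-labelled and 1436 on the Bmi1-labelled array. S100a9 and S100a8, the subunits of calprotectin, read 731 and 851 on the DKO-labelled, 15.95 and 33.1 on the Bmi1-labelled, 52.7 and 93.4 on the Mel18-labelled, and 762 and 935 on the wild-type array. Cd177 was the lower member, at 258 (DKO-labelled) against 999.9 (Bmi1-labelled). Of 20 tested macrophage and dendritic cell genes 7 were higher and 1 lower, with summed intensities of 9745 (DKO-labelled) and 8287 (Bmi1-labelled): the adaptors Tyrobp and Fcer1g differed by 2.39 and 2.25, and Cd14 by -1.10. Of 21 tested T and NK cell genes 8 were higher and none lower, with sums of 3709 (DKO-labelled) and 1721 (Bmi1-labelled). Gzma, a granzyme of killer cells, read 683 on the DKO-labelled array, 100 on the Bmi1-labelled, 69.0 on the Mel18-labelled and 203 on the wild-type array. In bulk RNA more cells of a type and more RNA per cell cannot be told apart, and the part of these cells in the inflammatory differences was not tested.

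Of 25 tested fibroblast genes 18 were higher and none lower, with a median of 1.33 and summed intensities of 9093 on the DKO-labelled and 3177 on the Bmi1-labelled array. The collagen Col3a1 read 2528 on the DKO-labelled, 392 on the Bmi1-labelled, 1779 on the Mel18-labelled and 1417 on the wild-type array. The Bmi1-labelled array stood apart at the low end. Col1a2 and Col1a1 differed by 1.99 and 1.82 and the proteoglycan Dcn by 1.53. Another Col1a1 probe set, close to the floor, read 39.5 on the DKO-labelled and 34.9 on the Bmi1-labelled array and did not pass the rule. None of 13 smooth muscle genes, 10 endothelial genes or 5 enteric neuron and glia genes passed the rule, with medians of 0.55, 0.17 and 0.21. Of 8 tested B and plasma cell genes 2 were higher, Jchain and Ighm, and of 3 tested pancreatic acinar genes 1 was lower, the elastase Cela1 at 1911 (DKO-labelled) against 7498 (Bmi1-labelled).

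Of 33 tested interferon-induced genes 9 were higher and 2 lower, with a median of 0.45. Gbp2b, a guanylate-binding protein, read 2787 on the DKO-labelled array, 14.4 on the Bmi1-labelled, 24.3 on the Mel18-labelled and 1866 on the wild-type array. The antiviral proteins Rsad2, Usp18 and Mx1 differed by 1.56, 1.29 and 1.22 and the ubiquitin-like Ubd by 1.33. Cxcl9 and the GTPase Iigp1, at -1.07, were the lower members. None of 21 tested antigen presentation genes passed the rule, with a median of 0.09, and the class II chain H2-Ab1 read 2907 on the DKO-labelled and 2599 on the Bmi1-labelled array, against 906 on the Mel18-labelled and 4882 on the wild-type array.

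Of 17 tested genes of mucosal injury and repair 9 were higher and none lower, with a median of 1.00. Sprr1a, a cornified envelope protein induced in injured epithelium, read 206 on the DKO-labelled and 29.9 on the Bmi1-labelled array, the growth factor Ereg 65.2 (DKO-labelled) and 12.9 (Bmi1-labelled), and the urokinase receptor Plaur 330 (DKO-labelled) and 95.8 (Bmi1-labelled). Plet1 read 247 on the DKO-labelled, 57.2 on the Bmi1-labelled, 77.0 on the Mel18-labelled and 2414 on the wild-type array by its brightest probe set, and 71.9 on the DKO-labelled and 57.2 on the Bmi1-labelled array by another. Of 27 heat shock and unfolded protein response genes only Chac1, a glutathione-degrading enzyme, passed the rule, at 210 (DKO-labelled) against 26.3 (Bmi1-labelled). None of 16 tested housekeeping genes passed it, with a median of -0.20, which was close to the -0.14 of all tested genes.

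**Figure D4:**
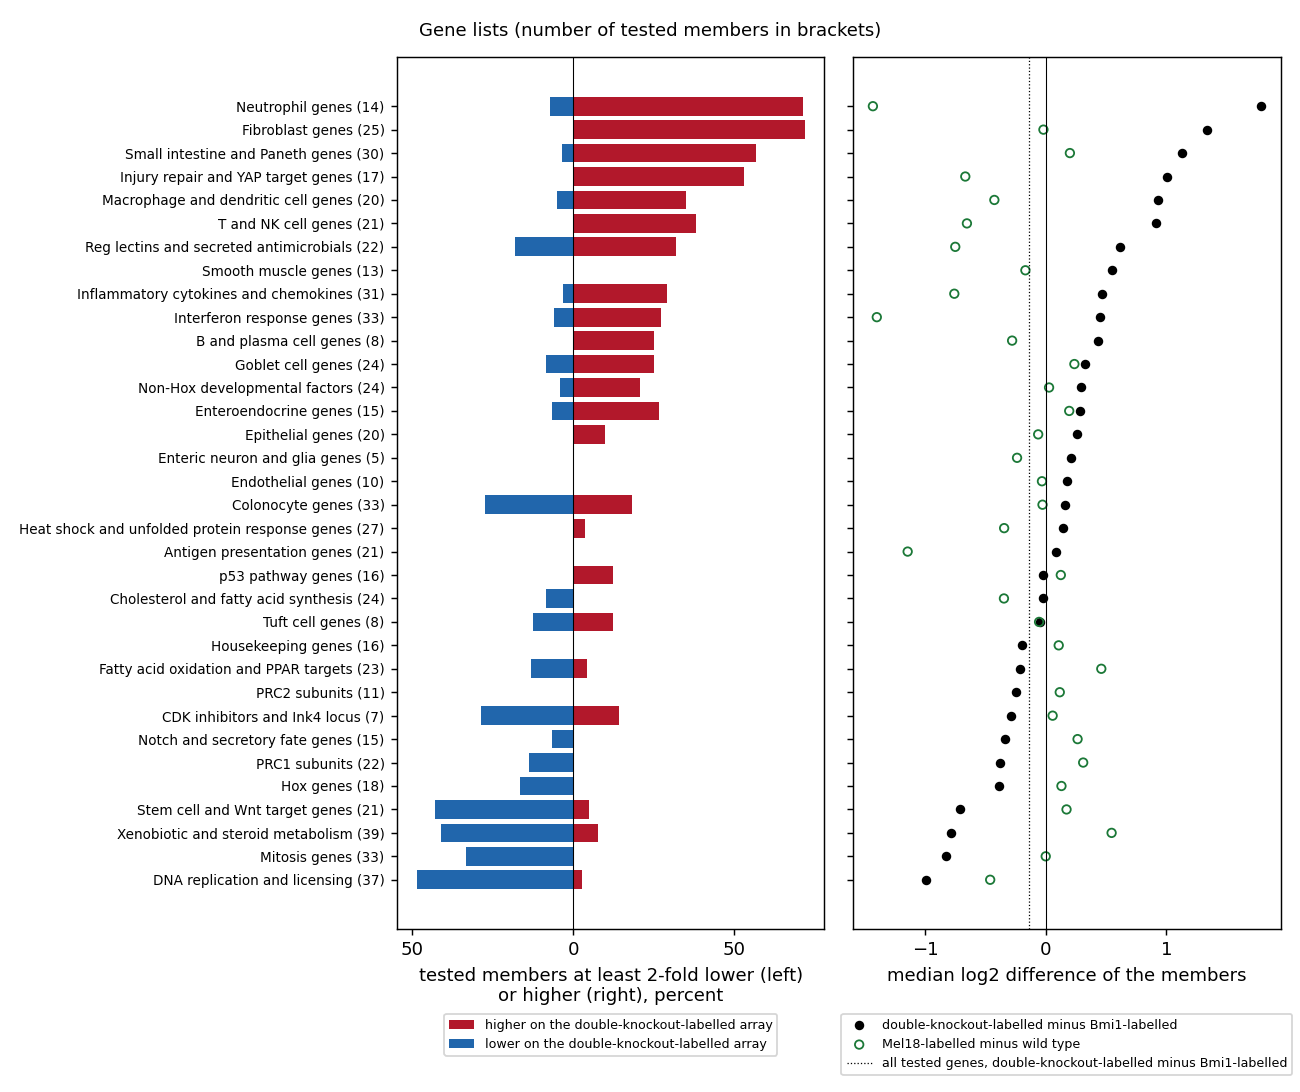
Gene lists with at least 5 tested members, ordered by the median log2 difference, with the number of tested members in brackets. Left, the percent of members at least 2-fold higher (red, right of 0) or lower (blue, left of 0) on the DKO-labelled array than on the Bmi1-labelled array. Right, the median log2 difference of the members for the DKO-labelled minus Bmi1-labelled arrays (filled) and the Mel18-labelled minus wild-type arrays (open), with a dotted line at the median of all tested genes, -0.14; neutrophil genes are at the top at 1.79 and replication genes at the bottom at -0.995.

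Beyond the lists, the largest differences fell on few genes with a shared description. Among the 15 highest, Sptssb, a subunit regulator of sphingolipid synthesis, read 234 on the DKO-labelled array and 10.8 on the Bmi1-labelled, 17.1 on the Mel18-labelled and 21.0 on the wild-type array. Suox, the sulfite oxidase, read 745 on the DKO-labelled array and between 48.0 and 69.5 on the other 3, and Depdc7 read 107 on the DKO-labelled array and between 5.61 and 6.11 on the other 3. Plat, the tissue plasminogen activator, read 584 on the DKO-labelled, 31.6 on the Bmi1-labelled, 44.4 on the Mel18-labelled and 160 on the wild-type array. Clca4b, a secreted protein of differentiated surface cells, read 5849 on the DKO-labelled and 274 on the Bmi1-labelled array, but 7840 in wild type. Depdc7 and Suox thus stood apart on the DKO-labelled array, whereas Clca4b was near its wild-type level there.

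Among the 15 lowest, Nxpe4 read 16.6 on the DKO-labelled array, against 1561 on the Bmi1-labelled, 2496 on the Mel18-labelled and 21.1 on the wild-type array, and the related Nxpe2 read 11.1 on the DKO-labelled, 376 on the Bmi1-labelled, 445 on the Mel18-labelled and 50.1 on the wild-type array. Both were high on 2 arrays, Mel18-labelled and Bmi1-labelled, and under the floor on the DKO-labelled array. Shisa2, an inhibitor of Wnt and FGF receptors, read 12.8 on the DKO-labelled and 304 on the Bmi1-labelled array, the small muscle protein Smpx 9.67 (DKO-labelled) and 291 (Bmi1-labelled), and the fucosyltransferase Fut9 22.04 (DKO-labelled) and 508 (Bmi1-labelled). The serotonin receptor Htr4 read 13.7 on the DKO-labelled and 245 on the Bmi1-labelled array, the lung-type cytochrome Cyp2f2 32.1 (DKO-labelled) and 498 (Bmi1-labelled), and the protease Tmprss13 15.1 (DKO-labelled) and 229 (Bmi1-labelled). Cttnbp2 read 11.0 on the DKO-labelled and 136 on the Bmi1-labelled array, the creatine synthesis enzyme Gatm 17.4 (DKO-labelled) and 192 (Bmi1-labelled), and Cabcoco1 11.4 (DKO-labelled) and 107 (Bmi1-labelled). Of these 15 genes 14 lay under the floor on the DKO-labelled array, Tgm3 being the exception, so the sizes of their differences depend on values under the floor. Of the 30 highest and lowest genes 18 had 1 probe set, and 9 of 10 further probe sets at the floor had the same sign and passed 2-fold. The exception was a Cttnbp2 probe set at 40.5 on the DKO-labelled and 25.7 on the Bmi1-labelled array. Over all called genes 699 of 757 further probe sets (92.3%) had the same sign and 371 (49.0%) also differed 2-fold.

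The same Mel18 label can be set against wild type without the Bmi1 label, on arrays that the main difference does not use. Under the same rule the Mel18-labelled array had 374 higher and 296 lower genes relative to wild type, 5.65% of 11862 tested. Of 11674 genes tested in both comparisons 331 passed in both, which is 23.9% of the 1387 called with the Bmi1 label and 51.4% of the 644 called without it. Of these 331 genes 311 (93.96%) ran in opposite directions, 133 higher with the Bmi1 label and lower without it, and 178 the other way. The 2 differences had a Pearson correlation of -0.57 across those 11674 genes, which are not independent replicates and share the background of each array. The arrays pair as DKO-labelled with wild type and Bmi1-labelled with Mel18-labelled, so the 2 differences set those pairs against each other in opposite order.

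Genes in the opposite class include several named above. Reg3b differed by 9.72 with the Bmi1 label and by -5.30 without it, Gbp2b by 7.60 and -6.26, S100a9 by 5.52 and -3.85, and Nxpe4 by -6.55 and 6.89. Among 20 genes that ran the same way, 10 were higher in both comparisons, led by the cytochrome Cyp2c65 at 2.58 with the Bmi1 label and 2.12 without it. Naaladl1 differed by 3.81 and 1.78, Enpep by 2.92 and 1.44 and Slc7a9 by 2.53 and 1.25, 3 members of the small intestine list. The pentraxin Mptx1 differed by 1.13 and 2.95, the membrane receptor Paqr8 by 1.30 and 1.26, the ribosomal protein Rps4l by 1.47 and 1.26 and the urea cycle regulator Nags by 1.32 and 1.15. Other Paqr8 probe sets did not pass the rule without the Bmi1 label. They read 30.2 and 34.4 on the Mel18-labelled array, against 30.8 and 29.4 in wild type. The 10 lower in both held Mcm5 at -1.75 and -1.31, Mcm3 at -1.34 and -1.06 and the repair protein Brca1 at -1.71 and -1.04. Further Mcm3 probe sets at the floor differed by -1.06 and -0.70 with the Bmi1 label. Brca1 lay near the floor, at 40.7 on the Bmi1-labelled and 49.7 on the wild-type array. It read 12.4 on the DKO-labelled and 24.2 on the Mel18-labelled array, and its further probe sets lay under the floor. Gdpd3, Cxcl9, Iigp1, Atp12a and Clca3b were lower in both as well, with Gdpd3 at -1.41 and -1.65. Of the replication list 18 of 37 tested genes were lower with the Bmi1 label, at a median of -0.995, and 4 of 38 without it, at a median of -0.46. Of the neutrophil list 10 of 14 were higher with the Bmi1 label, at a median of 1.79, and 8 of 15 were lower without it, at a median of -1.43.

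**Figure D5:**
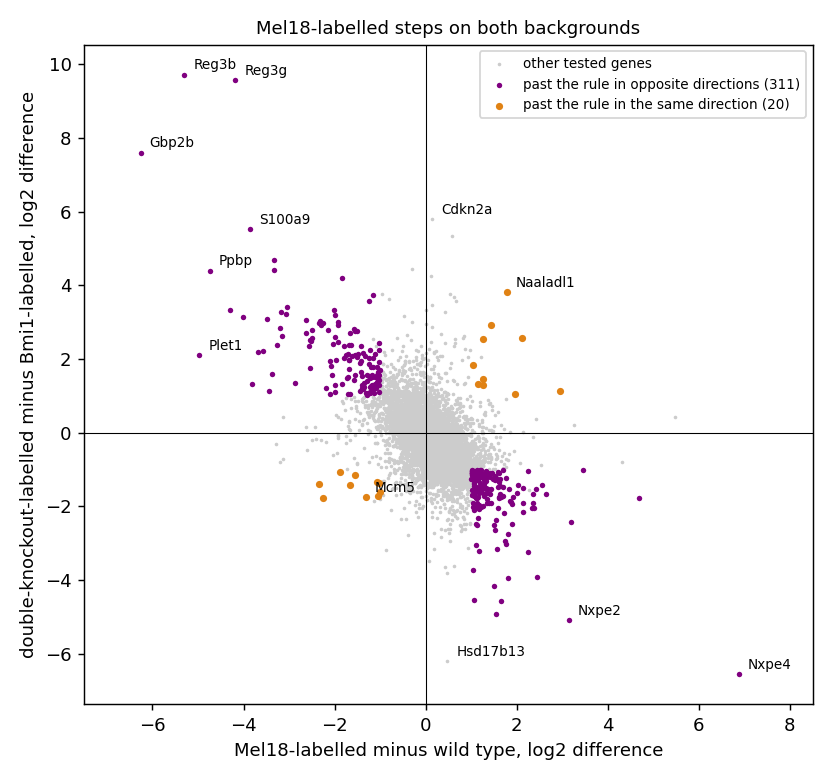
Log2 difference of the DKO-labelled minus Bmi1-labelled arrays (vertical axis) against that of the Mel18-labelled minus wild-type arrays (horizontal axis) for each tested gene, 1 array a genotype. Purple points are the 311 genes past the 2-fold rule in opposite directions and orange points the 20 past it in the same direction; the cloud slopes downward, with Reg3b, Reg3g and Gbp2b at the upper left, Nxpe4 at the lower right, and Cdkn2a (5.80 on the vertical axis) near 0 on the horizontal axis.

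The non-additive term, the first difference minus the second, was at least 1 in size for 3322 of 12154 genes (27.3%), 1058 positive (8.7%) and 2264 negative (18.6%). The counts became 2026 and 1196 with each array set to the median of its genes that reached the floor, so their balance has no fixed direction either. Reg3b at 15.02, Gbp2b at 13.9, Reg3g at 13.8 and S100a9 at 9.37 stood at the high end, and Nxpe4 at -13.4 and Nxpe2 at -8.23 at the low end. Each of these 6 terms uses at least 1 value under the floor, so their sizes and order are not exact.

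The other 2 arrays place the called genes, by which of the 2 values each of them lay nearer to on the log2 scale. Of the 515 higher genes 184 (35.7%) had both wild type and the Mel18-labelled array nearer to the Bmi1-labelled value, beside 26.9% of tested genes. Cdkn2a, Tm4sf5, Mttp, Slc10a2, Irx2, Gata4 and Cck belong here. In 247 (48.0%) wild type was nearer to the DKO-labelled and the Mel18-labelled array nearer to the Bmi1-labelled value, beside 41.4% of all tested genes, and Il1b, S100a8, Gbp2b and Clca4b are among them. In 71 (13.8%) both other arrays were nearer to the DKO-labelled value, beside 22.8% of tested genes. Col3a1, Col1a2 and Fcgbp are among them, with the Bmi1-labelled array the lowest. Retnlb falls here too, with the Mel18-labelled array at 298 between 116 (Bmi1-labelled) and 716 (DKO-labelled), and wild type at 2665. Of the 953 lower genes 285 (29.9%) had both wild type and the Mel18-labelled array nearer to the Bmi1-labelled value, beside 26.9% of tested genes. Mcm6, Pola1, Tgm3, Slc5a8 and Hoxd10 are examples, each lowest on the DKO-labelled array. Mcm5 falls here too, but its Mel18-labelled value of 287 lay between 143 (DKO-labelled) and 481 (Bmi1-labelled), with wild type at 714. In 556 (58.3%) wild type was nearer to the DKO-labelled and the Mel18-labelled array nearer to the Bmi1-labelled value, beside 41.4% of tested genes. Nxpe4, Smoc2 and Ces1d are among them. In 87 (9.13%) both other arrays were nearer to the DKO-labelled value, beside 22.8%, such as Hsd17b13 and Lgr5, highest on the Bmi1-labelled array. These classes were defined after the values were seen and describe 4 arrays.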

How the data were processed

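Total RNA of mouse colonic epithelial cells was hybridised to Affymetrix Mouse430_2 arrays, 1 array for each of 4 genotypes. The deposited table holds 1 intensity per probe set and array on a linear scale (3.25 to 22803 units), computed by the authors with RMA in Affymetrix Expression Console (per the submitters' processing notes). Versions, and joint or separate summary of the arrays, are not given in the sources used here. Medians were 34.1 (DKO-labelled), 32.1 (Bmi1-labelled), 32.9 (Mel18-labelled) and 34.2 units (wild type). Log2 was taken without a pseudocount or further scaling, and no detection call or depth exists for these values.

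Of 45037 probe sets 34945 carried 1 symbol, 932 more than 1, and 9160 were absent from the platform annotation; 34741 gene identifiers matched RefSeq (GRCm38.p6), which updated the symbols. For each of 18193 genes the probe set of highest mean log2 value was used. Genes at or above the floor (33.4 units, the median of all values) on either array of a pair were tested by a 2-fold size rule; since a gene enters by its higher array, counts and medians over tested members are descriptions. No p-value or SD is given, because the number of arrays limits the precision. The members and gene lists were chosen with earlier results of these data known. Named genes are the 15 highest and 15 lowest, up to 8 per class of the 2 comparisons with and without the Bmi1 label and of the non-additive term, and up to 6 per list with members past the rule in the other direction or showing the range; 24 higher and 36 lower genes with systematic names are counted only. Abcg5, Abcg8 and the runs of neighbouring genes in the closing section were chosen after their values were seen. Simulated arrays with known fold changes were used only to check that the code applies the call rule. How often the rule errs on measured arrays, for dim genes or near its edge, was not tested. Python 3.11.15, pandas 2.3.3, numpy 2.4.6 and scipy 1.17.1 were used.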

Additional observations from a re-analysis of the deposited data

Results flagged for a closer look

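Genes that passed the 2-fold rule in opposite directions in the DKO-labelled minus Bmi1-labelled difference and in the Mel18-labelled minus wild-type difference were noted, since the same label step then runs 2 ways. There were 133 genes higher in the first and lower in the second, and 178 genes lower in the first and higher in the second. Each array is a lone sample, so these differences were not tested. The values below are the first difference minus the second on the log2 scale, for the named genes. Where a term uses a value under the floor, its size and rank are not exact.

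Among secreted defence proteins and goblet cell products the terms were 15.02 for Reg3b, 13.8 for Reg3g, 7.74 for Clca4b, 7.61 for Lpo, 5.79 for Ltf, 5.78 for Retnlb and 5.19 for Slpi. Among cytokines and chemokines they were 9.14 for Ppbp, 7.16 for Cxcl2, 6.44 for Il1b, 5.33 for Cxcl5 and 5.04 for Ptgs2. Genes of white blood cells gave 9.37 for S100a9, 8.01 for S100a8, 5.25 for Clec4d, 4.38 for Clec4e, 4.32 for Gzma, 4.06 for Tyrobp, 3.66 for Gzmb, 3.55 for Il1r2, 3.27 for Fcer1g, 3.20 for Fcgr3 and 3.13 for Itgae. Interferon-induced genes gave 13.9 for Gbp2b, 5.14 for Ubd, 3.62 for Rsad2, 3.27 for Usp18 and 2.62 for Mx1. Genes of injury, epithelium and stress gave 7.08 for Plet1, 6.05 for Plat, 5.86 for Lrg1, 4.94 for Sprr1a, 4.93 for Chac1, 4.14 for Cldn4 and 3.44 for Emp1. Xist stood at 4.91 and E2f2 at 2.95.

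In the other direction Nxpe4 stood at -13.4, Nxpe2 at -8.23, Smpx at -6.46, Tnfsf13os at -6.44, Tmprss13 at -6.37, Shisa2 at -6.24 and Cyp2f2 at -5.77. Htr4 followed at -5.66, Pck1 at -5.62, Fut9 at -5.58, Cabcoco1 at -5.50, Tgm3 at -4.76, Cyp2c68 at -4.71 and Tmem25 at -4.42. Smoc2 was at -4.39, Hdac11 at -4.37, H2bc21 at -4.28, Cela1 at -3.14, Best2 at -2.69 and Auts2 at -2.32.

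Probe sets that do not have exactly 1 gene symbol stayed out of the counts above, and 822 of the 3518 among them at the floor (23.4%) passed the 2-fold rule between the DKO-labelled and Bmi1-labelled arrays, 677 higher and 145 lower. Of the 2932 with no listed symbol 22.2% were higher and 3.04% lower on the DKO-labelled array, with a median of 0.43, beside 4.78% and 7.47% of the 20400 probe sets with 1 symbol and a median of -0.12. Between the DKO-labelled and wild-type arrays the median of the unlisted probe sets was 0.00, and between the Bmi1-labelled and wild-type arrays it was -0.45 with 18.8% lower. What these probe sets read, and why they differ from listed ones, was not tested.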

How the results depend on the processing

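No paired analysis was possible because each genotype has 1 array, and for the same reason no array could be left out. Of 1408 values of 158 named genes over 9 alternatives 1312 kept their direction and their side of the rule, 94 kept the direction but not the rule, and 2 reversed: without probe sets of the kinds that can match several transcripts, Hoxa10 read 0.48 and Top2a 0.12. For 100 of the genes no alternative changed the call. With each array set to the median of its genes that reached the floor, 826 genes were higher and 519 lower on the DKO-labelled array, 234 were higher on the Mel18-labelled array than in wild type, and 2026 non-additive terms were positive and 1196 negative. List medians became 0.0088 for Hox genes (reversed), 0.58 for other developmental factors, 0.56 for enteroendocrine, 0.74 for cytokine and 1.04 for B and plasma cell genes. This centring moved all genes of an array by the same amount, and the median of all tested genes went from -0.14 to 0.11. Lists not named thus shifted as well. List medians are named in this section only where they moved beyond a tolerance of 0.25. With a 1.5-fold rule the counts were 1187 and 2553, 1402 and 745 for the Mel18-labelled array against wild type, and 2048 and 4048 non-additive, with 1222 opposite and 105 in the same direction. With the floor at percentile 75 they were 243 and 195 for the Mel18-labelled array, 671 positive non-additive, 199 opposite and 13 the same, and list medians were -0.25 for developmental factors (reversed), -0.0044 for CDK inhibitors, 0.99 for enteroendocrine, 1.08 for tuft, 3.45 for neutrophil, 1.27 for T and NK and 1.06 for B and plasma cell genes. Without a floor medians were 0.085 for Hox genes (reversed), -0.43 for stem cell, 0.84 for small intestine, -0.35 for xenobiotic and 1.46 for neutrophil genes. The mean in place of the median gave 0.54 for CDK inhibitors (reversed, through Cdkn2a), 0.66 for enteroendocrine, 1.11 for antimicrobial and 0.86 for cytokine genes. The mean over probe sets gave 1.43 for neutrophil and 0.83 for B and plasma cell genes, and leaving out the probe sets named above 1.47 and -0.042 (reversed). With 16 added to each intensity 241 genes were higher on the Mel18-labelled array than in wild type, 13 ran the same way in both comparisons, and the neutrophil median was 1.24. TTTGGCG alone stood in 4.46% of lower, 1.30% of higher and 3.04% of tested promoters. Except where a count of genes shows it, the cause was not tested. Values under the floor limit the size of 125 higher and 195 lower differences.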

Other observations

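Some called genes stood side by side in the genome. Among neighbours in the RefSeq gene order, counting tested genes only, 23 runs of at least 3 genes passed the rule in the same direction, 10 higher with 31 genes and 13 lower with 46 genes. The longest was a run of 8 lower genes on the X chromosome: Bhlhb9, Bex2, Bex4, Tceal8, Bex1, Tceal9, Bex3 and Tceal1, a cluster of small proteins best known from neurons. Bex1 read 51.9 on the DKO-labelled array, 294 on the Bmi1-labelled, 113 on the Mel18-labelled and 51.9 on the wild-type array, a difference of -2.50. Bex4 differed by -2.28, Bex3 by -1.41 and Tceal9 by -1.16, so members with bright and with dim signal were lower alike. On the X chromosome as a whole 39 of 320 tested genes were lower (12.2%) and 10 higher (3.13%), beside 7.96% and 4.3% of all tested genes, with a median of -0.26. The 8 genes of the run are among those 39. On chromosome 3 the lower share was 10.7%, and on chromosome 13 it was 9.39% with a median of -0.26 as well. Xist was higher on the DKO-labelled array, and the part of sex in the X-linked differences was not tested.

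Some other runs held families of related genes, whose probe sets may cross-match, which was not checked, and others held genes of no shared family, such as Egf, Gar1 and Pla2g12a on chromosome 3, which were lower. The mast cell proteases Mcpt1 and Mcpt2 stood higher beside Gzmb on chromosome 14. Mcpt1 read 836 on the DKO-labelled, 111 on the Bmi1-labelled, 200 on the Mel18-labelled and 755 on the wild-type array, and Mcpt2 differed by 3.05. The small proline-rich genes Sprr2d and Sprr2h differed by 3.23 and 1.58. The glutathione transferases Gstm6, Gstm3, Gstm2 and Gstm1 and the carboxylesterases Ces1d, Ces1e, Ces1f and Ces1g were lower as whole runs. Outside the lists, the sterol exporters Abcg5 and Abcg8, which act as a pair, differed by 3.46 and 2.18, and Abcg5 read 1746 on the DKO-labelled array, 158 on the Bmi1-labelled, 148 on the Mel18-labelled and 134 on the wild-type array.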
